A study of Homo sapiens with 24 samples.

Results

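Genes of the canonical Wnt and beta-catenin pathway, 10 in all (LRP5, LRP6, AXIN1, AXIN2, APC, GSK3B, CTNNB1, LEF1, TCF7 and TCF7L2), were followed in diffuse large B-cell lymphoma (DLBCL) cells after silencing of the transcription factor FOXP1. The genes were taken by name, and all probes carrying 1 of these 10 names were used, which gave 18 probes of 41000 on the array (10 genes of 30142). DB and K422 are established lines of the germinal centre B-cell-like subtype (GCB-DLBCL), and HBL-1 and OCI-Ly3 of the activated B-cell-like subtype (ABC-DLBCL), so each subtype is represented by a pair of lines. In each line FOXP1 was silenced by nucleofection with 1 of 2 siRNAs at 1 µM, siFOXP1_308 or siFOXP1_309, and control cells of the same line received a non-silencing siRNA (siCtrl). RNA was collected after 48 h in 3 independent experiments, and each siFOXP1 sample (Cy3) was hybridised with siCtrl RNA (Cy5) on a 2-colour array, giving 6 arrays per line and 24 in all. The values are those of these lines only.

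In the absence of a Wnt ligand, beta-catenin (CTNNB1) is held in a destruction complex of the scaffolds AXIN1, AXIN2 and APC with the kinase GSK3B, and is phosphorylated and degraded. Ligand binding to Frizzled receptors and the co-receptors LRP5 and LRP6 inhibits the complex, and stabilised beta-catenin acts in the nucleus as a coactivator of the DNA-binding proteins LEF1, TCF7 and TCF7L2. In lymphoid tissue LEF1 and TCF7 are best known from T cell and early lymphocyte development, and AXIN2 is widely used as a transcriptional readout of the pathway.

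FOXP1 transcript was lower on all 6 arrays of each line, with mean log2 ratios from -2 in DB to -1.34 in K422. All 6 B cell markers were well above background in every line. The 6 ABC markers were well above background on all arrays of HBL-1 and OCI-Ly3, against 4 in DB and 2 in K422, and the 5 GCB markers on all arrays of DB and K422, against 2 in HBL-1 and 2 in OCI-Ly3. DB and OCI-Ly3 were scanned together (scan 1), as were K422 and HBL-1 (scan 2), so that each scan holds 1 line of each subtype. siFOXP1 RNA carried the same dye on every array, so any bias of a probe towards 1 dye and the effect of silencing cannot be told apart within a line. A bias shared by all arrays cancels in differences between lines. The share of probes well above background in either channel ran from 57.3% to 64.5% over the arrays, whose number limits the precision.

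The level of a gene in control cells was taken from the siCtrl channel as log2 signal minus the 75th percentile of the array, averaged over both arrays of a replicate to give 3 control samples per line. Levels are compared between lines for a given probe, never between probes. The most evident difference lay at the nuclear end of the pathway: LEF1, TCF7 and the feedback gene AXIN2 were well above background on all 6 arrays of both ABC-DLBCL lines and on 1 array at most of either GCB-DLBCL line. Counting differences of 2-fold or more at a limma adjusted p under 0.05, 8 of the 10 genes differed in level between OCI-Ly3 and DB (6 higher and 2 lower in OCI-Ly3), where 26.8% of all probes did. Between HBL-1 and K422, 6 differed (4 higher and 2 lower in HBL-1), against 26% of all probes. These lines share a scan. Across scans, where line and scan cannot be told apart, 2 differed between K422 and DB (28.2% of all probes), 6 between HBL-1 and DB (31.3%), 5 between OCI-Ly3 and K422 (30.9%) and 4 between OCI-Ly3 and HBL-1 (25.9%). In such bulk RNA, fewer cells expressing a gene and less RNA per cell cannot be told apart.

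**Figure D1:**
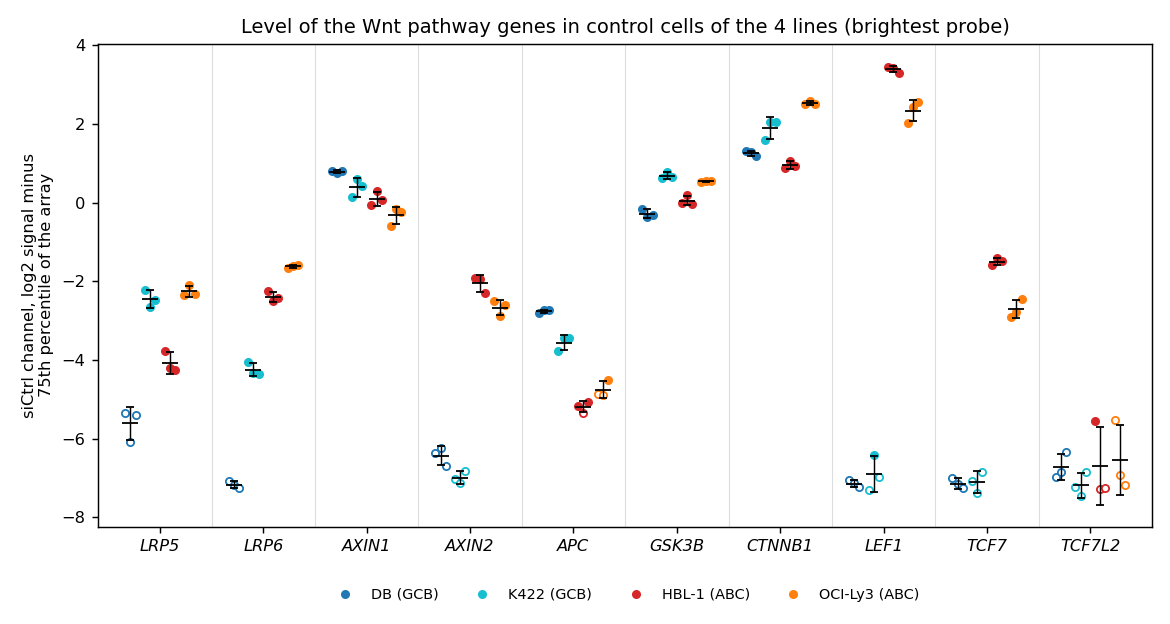
Level of each gene (brightest probe) in siCtrl cells, as log2 signal minus the 75th percentile of the array, for 3 control samples per line with mean and SD. Open points are samples in which neither array was well above background; LEF1, TCF7 and AXIN2 lie far higher in HBL-1 and OCI-Ly3, APC lies lower there, and TCF7L2 lies near background in all 4 lines.

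The response to silencing was the log2 ratio of siFOXP1 over siCtrl, averaged over both siRNAs for each line. Of the 10 genes, 1 (LRP5, higher) was called in DB at an adjusted p under 0.05 and a change of at least 1.41-fold (0.5 on the log2 scale), where 2.17% of all probes were called. In K422, HBL-1 and OCI-Ly3, 0 were called by limma or by the methods' t-test, against 4.25%, 9.88% and 4.62% of all probes. At an unadjusted p under 0.05 and no limit on size, limma gave 4 genes in K422 (29.8% of all probes), 4 in OCI-Ly3 (30%), 5 in HBL-1 (38.6%) and 3 in DB (23.7%). With the adjusted p alone, 4 genes passed in HBL-1 (31.3% of all probes), 3 in DB (12.4%), 3 in K422 (19.1%) and 2 in OCI-Ly3 (19.5%), all of them below 1.41-fold apart from LRP5 in DB. The median log2 ratio of the 10 genes was -0.05 in K422, 0.03 in HBL-1, 0.13 in DB and 0.16 in OCI-Ly3, against 0 for all probes in each line.

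**Figure D2:**
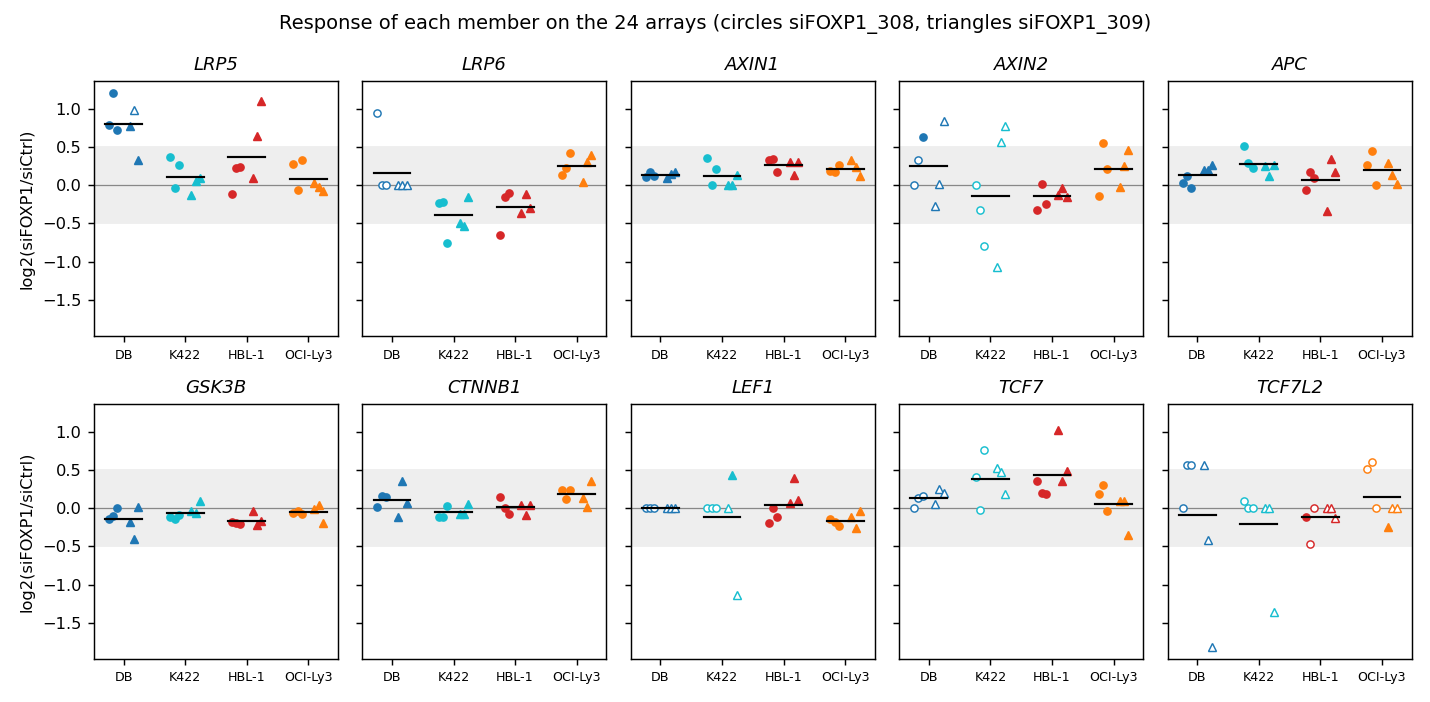
Log2 ratio of siFOXP1 over siCtrl on each of the 24 arrays for the brightest probe of each gene, with the mean of each line as a bar and the band below 1.41-fold in grey. Open points had both channels at background; the mean lies outside the band for LRP5 in DB only, at 0.80.

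Of the co-receptors, LRP5 was read by a single probe in its coding sequence (A_23_P1505, hg18 chr11:67972935-67972994, plus strand), which lies in the part encoding the cytoplasmic tail. It is shown because the single called response rests on it:

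LRP5: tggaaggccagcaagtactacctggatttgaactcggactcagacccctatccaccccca

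In control cells the level of LRP5 was -6.09, -5.40 and -5.35 in the 3 samples of DB, where it was not well above background on any array. It was -2.66, -2.47 and -2.23 in K422, -4.27, -4.21 and -3.77 in HBL-1, and -2.34, -2.33 and -2.10 in OCI-Ly3, well above background on 6 of 6 arrays of each. LRP5 thus stood highest in 1 line of each subtype, and OCI-Ly3 and K422 did not differ beyond their spread (difference 0.20, limma adjusted p = 0.454). It was at least 6.42-fold higher in OCI-Ly3 than in DB (adjusted p = 1.98e-07) and 3.1-fold lower in HBL-1 than in K422 (adjusted p = 8.41e-05). With normexp background correction, which adds an offset of 50 to each signal, these log2 differences were 0.94 and -0.49 and were not called. A bound such as the former sets the mean of the bright line against the lowest signal well above background on each array of the dim line.

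On silencing in DB, the log2 ratio of LRP5 ran from 0.33 through a median of 0.78 to 1.21, above 0 on 6 of 6 arrays, with a mean of 0.80 ± 0.29 (SD, n = 6, limma adjusted p = 0.000113). The siRNAs gave 0.91 (siFOXP1_308) and 0.69 (siFOXP1_309). The signals behind this were small: 8.64 to 20.8 units in the siCtrl channel, not well above background on any array, and 15.7 to 34.1 in the siFOXP1 channel, well above background on 5 of 6. Against the lowest signal well above background, the rise is at least 1.1-fold. With normexp correction the log2 ratio was 0.12 after loess and 0.13 after median centring, and was not called.

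In the other lines LRP5 was brighter and its ratios were smaller. They ran from -0.13 to 0.37 in K422 (mean 0.11, adjusted p = 0.598), from -0.11 to 1.11 in HBL-1 (mean 0.37 ± 0.44, adjusted p = 0.0142, below 1.41-fold) and from -0.08 to 0.33 in OCI-Ly3 (mean 0.08, adjusted p = 0.716). In HBL-1 the higher ratios came from siFOXP1_309, with a mean of 0.62 against 0.12 for siFOXP1_308, and without replicate 1 of HBL-1 the mean was 0.56 and was called. The response of LRP5 differed among the 4 lines, with line values 0.72 apart (moderated F-test in limma, adjusted p = 0.0069, where 9.69% of all probes were called), and between OCI-Ly3 and DB, by -0.72 (standard error 0.15, adjusted p = 0.0137). Between HBL-1 and K422 it was 0.26 (adjusted p = 0.359). Over the 24 log2 ratios the genes most like LRP5, of 17166 compared, were CCNJ (Pearson r = 0.814), ZBTB7A (0.793) and LRFN4 (0.769), a description over arrays that share lines.

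LRP6, the other co-receptor, had a pair of probes near the end of the transcript, of which the brighter (A_23_P150827, hg18 chr12:12164867-12164926, minus strand) begins as follows, first 30 bases, shown because its direction differs between lines:

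LRP6: gtccatctcagagcagcaaaccatagatac

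Its level was -7.26, -7.17 and -7.08 in DB, below background on every array. It was -4.37, -4.32 and -4.07 in K422, -2.50, -2.43 and -2.25 in HBL-1, and -1.65, -1.62 and -1.59 in OCI-Ly3, and the samples of the 4 lines did not overlap. By this probe LRP6 was at least 9.96-fold higher in OCI-Ly3 than in DB (limma adjusted p = 3.21e-11) and 3.63-fold higher in HBL-1 than in K422 (adjusted p = 2.55e-07), the latter a log2 difference of 1.86 that was 1.05 with normexp correction and not called. The dimmer probe gave differences in the same direction, 1.88 and 1.40 on the log2 scale, both called. It was well above background on 1 siCtrl signal of DB, at 99.5 units.

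On silencing, the log2 ratio of LRP6 was below 0 on 6 of 6 arrays of K422 (-0.75 to -0.15, mean -0.40 ± 0.23, SD, limma adjusted p = 0.0148) and of HBL-1 (-0.65 to -0.10, mean -0.28 ± 0.21, adjusted p = 0.0595). It was above 0 on 6 of 6 arrays of OCI-Ly3 (0.04 to 0.42, mean 0.25 ± 0.15, adjusted p = 0.127). None of these means reached 1.41-fold, but the arrays of OCI-Ly3 did not overlap with those of K422 or HBL-1. The difference among lines was called (range 0.64, adjusted p = 0.0102). That range runs from K422 to OCI-Ly3. DB lies inside it, at 0.16 from 1 array at 0.94 and 5 at exactly 0, the value that the scanner software sets where both signals are at background. The dimmer probe (A_23_P392457) did not show the pattern: its means were all above 0 in the lines that express the gene (K422 0.38, OCI-Ly3 0.28, HBL-1 0.27), and its difference among lines had an adjusted p of 0.253.

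**Figure D3:**
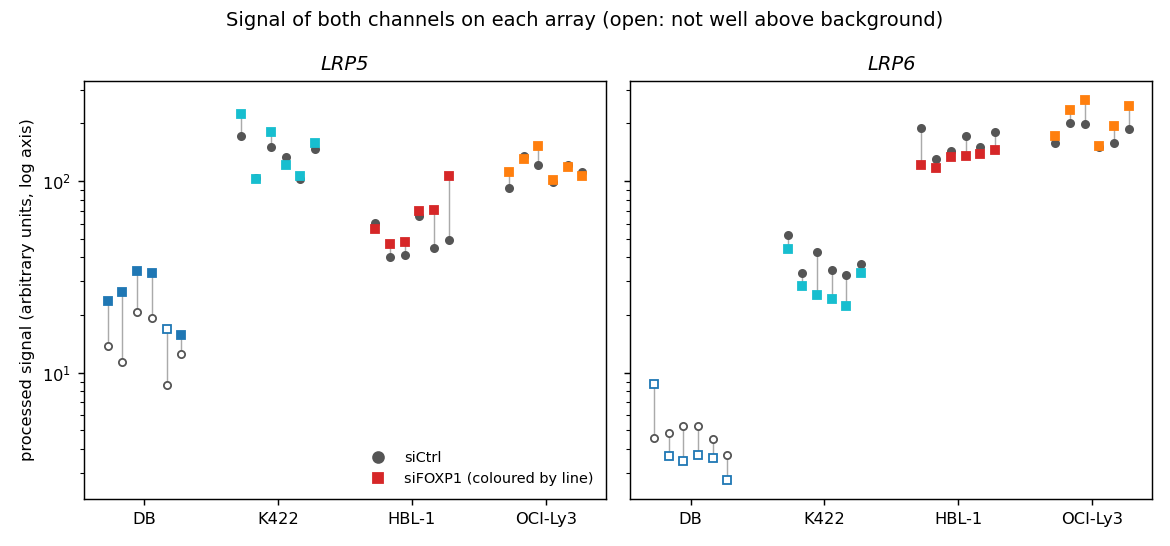
Processed signal (arbitrary units, log axis) of the LRP5 and LRP6 probes in both channels of each array, joined by a line, with siFOXP1_308 arrays left of siFOXP1_309 arrays in each line. In DB all siCtrl signals of both genes are open, that is not well above background, and the LRP5 signal of the siFOXP1 channel lies above that of the siCtrl channel on 6 of 6 arrays.

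In the destruction complex, AXIN1 was bright in all lines and AXIN2 was not. AXIN1, the constitutive scaffold, stood in the order DB (level 0.78 ± 0.03, SD, n = 3), K422 (0.38 ± 0.23), HBL-1 (0.09 ± 0.18) and OCI-Ly3 (-0.32 ± 0.23). Neighbours in that order did not differ at an adjusted p under 0.05, but OCI-Ly3 was 2.16-fold lower than DB (limma adjusted p = 0.000142), a difference that fell to -0.98 without replicate 1 of OCI-Ly3 and was then below 2-fold. Between HBL-1 and K422 it was -0.29 (adjusted p = 0.183).

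The response of AXIN1 was small and showed little spread. Its log2 ratios lay between 0.10 and 0.17 in DB (mean 0.14, limma adjusted p = 0.0362), 0.14 and 0.35 in HBL-1 (mean 0.27, adjusted p = 5.22e-05), 0.12 and 0.33 in OCI-Ly3 (mean 0.22, adjusted p = 0.000946), and 0.00 and 0.36 in K422 (mean 0.12, adjusted p = 0.0543). On 6 of 6 arrays of DB, HBL-1 and OCI-Ly3 the ratio was above 0, and all means were below 1.41-fold.

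AXIN2, the inducible scaffold, was read by 3 probes. The brightest (A_23_P148015, hg18 chr17:60955851-60955910, minus strand, first 30 bases below) lies near the end of the transcript, and the coding probe (A_24_P298027, hg18 chr17:60984850-60984909, minus strand) in the part encoding the RGS domain, and both are shown because they disagree:

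AXIN2, 3′ end: ttttgtcttaaaggtcttgagggttgacca
AXIN2, coding: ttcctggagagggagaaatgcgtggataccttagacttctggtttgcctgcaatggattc

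By the brightest probe the level of AXIN2 was -2.29, -1.94 and -1.92 in HBL-1 and -2.88, -2.62 and -2.51 in OCI-Ly3, well above background on 6 of 6 arrays of each. It was -6.70, -6.36 and -6.24 in DB and -7.14, -7.02 and -6.82 in K422, below background on every array. AXIN2 was at least 10.6-fold higher in HBL-1 than in K422 (limma adjusted p = 1.14e-09) and at least 4.81-fold higher in OCI-Ly3 than in DB (adjusted p = 9.64e-09). HBL-1 and OCI-Ly3 differed by 0.62 (adjusted p = 0.0112), below 2-fold. The second probe (A_23_P159395) exceeded background on 1 array of OCI-Ly3 and all 6 of HBL-1, and was called higher in HBL-1 than in K422 (adjusted p = 0.00209) but not in OCI-Ly3 than in DB (0.152). The coding probe was below background on all 24 arrays, also where the 3′ probe was bright.

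The response of AXIN2, the gene of this group most often read as pathway output, was not called in any line. In the lines that express it, the log2 ratio ran from -0.32 to 0.02 in HBL-1 (mean -0.14 ± 0.13, SD, n = 6, limma adjusted p = 0.686) and from -0.14 to 0.55 in OCI-Ly3 (mean 0.22 ± 0.27, adjusted p = 0.497). The 95% intervals were -0.54 to 0.25 and -0.18 to 0.61, so a change of 1.41-fold is not outside them in either line. In DB and K422 the siCtrl signals were at background on all arrays, and the ratios scattered from -1.07 to 0.84.

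APC, the tumour suppressor scaffold, was called lower in the ABC-DLBCL line of each scan by its brighter probe. Its level was -2.81, -2.74 and -2.74 in DB against -4.89, -4.87 and -4.52 in OCI-Ly3, and -3.79, -3.45 and -3.45 in K422 against -5.35, -5.16 and -5.08 in HBL-1, without overlap. All 6 siCtrl signals of DB and of K422 exceeded background, against 3 of HBL-1 and 2 of OCI-Ly3. APC was 3.98-fold lower in OCI-Ly3 than in DB (limma adjusted p = 5.59e-07) and 3.11-fold lower in HBL-1 than in K422 (adjusted p = 3.43e-06). With normexp correction these log2 differences were -0.81 and -0.22 and were not called. The dimmer probe (A_24_P918740) exceeded background in the siCtrl channel on 4 arrays of K422 and on 0 of the other lines. It was called lower in HBL-1 than in K422, at least 1.47-fold (limma adjusted p = 0.00427), but not in OCI-Ly3 than in DB (-0.97, adjusted p = 0.0697). It read K422 above DB, by 1.24, where the brighter probe gave -0.80.

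The log2 ratio of APC was above 0 on 6 of 6 arrays of K422 (0.12 to 0.52, mean 0.28 ± 0.13, SD, limma adjusted p = 0.00854) and of OCI-Ly3 (0.01 to 0.45, mean 0.19, adjusted p = 0.0648). It was 0.13 in DB and 0.07 in HBL-1, and the line values did not differ past the threshold (range 0.21, adjusted p = 0.40). GSK3B, the kinase of the complex, was bright in all lines, with levels from K422 (0.68 ± 0.09, SD, n = 3) and OCI-Ly3 (0.54 ± 0.01) down to HBL-1 (0.05 ± 0.13) and DB (-0.28 ± 0.11). K422 and OCI-Ly3 did not differ beyond their spread (adjusted p = 0.307), and no pair of lines differed 2-fold. Its log2 ratio was below 0 on 6 of 6 arrays of HBL-1 (-0.22 to -0.04, mean -0.17 ± 0.07, adjusted p = 0.00486) and on 5 of 6 of DB (mean -0.14, adjusted p = 0.0447), and was -0.06 in K422 and -0.05 in OCI-Ly3.

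CTNNB1, beta-catenin itself, was well above background on all 24 arrays by each of its 3 probes. By the brightest, its level was 2.50, 2.51 and 2.59 in OCI-Ly3, 1.58, 2.05 and 2.05 in K422, 1.17, 1.27 and 1.30 in DB, and 0.88, 0.94 and 1.06 in HBL-1. The order did not follow the subtypes, since an ABC-DLBCL line stood at each end of it, and DB and HBL-1 did not differ past the threshold (0.29, limma adjusted p = 0.102). CTNNB1 was 2.43-fold higher in OCI-Ly3 than in DB (adjusted p = 1.47e-05). It was 1.91-fold lower in HBL-1 than in K422 (adjusted p = 2e-04), below 2-fold by this probe and 3.33-fold by the second (adjusted p = 5e-07). Without replicate 1 of K422, the former difference was -1.09 and was called. The third probe (A_24_P608330) called neither pair, at -0.32 for HBL-1 against K422 (limma adjusted p = 0.195) and 0.86 for OCI-Ly3 against DB. By that probe the lowest level was that of DB (-3.17) and not of HBL-1 (-2.71), so the order of the lines depended on the probe.

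The log2 ratio of CTNNB1 was 0.11 in DB, -0.05 in K422 and 0.01 in HBL-1, with arrays on either side of 0. In OCI-Ly3 it was above 0 on 6 of 6 arrays (0.01 to 0.35, mean 0.18 ± 0.12, SD, limma adjusted p = 0.0197), below 1.41-fold. The other probes gave 0.14 and 0.04 in OCI-Ly3, and the line values did not differ past the threshold (range 0.23, adjusted p = 0.105). The 95% interval in OCI-Ly3 was 0.07 to 0.29, and in every line the interval of the brightest probe lay within 1.41-fold of no change. These arrays measure transcript and hold no information on beta-catenin protein, the form that the pathway regulates.

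LEF1 had the greatest difference in level between lines of the 10 genes. Its brightest probe (A_24_P20630, hg18 chr4:109188195-109188254, minus strand) lies near the end of the transcript and its dimmer one (A_23_P213045, hg18 chr4:109218902-109218961, minus strand) in the part encoding the HMG box, the DNA-binding domain that LEF1 shares with the TCF proteins. The brighter TCF7L2 probe (A_23_P389588, hg18 chr10:114901475-114901534, plus strand) starts upstream and runs into the same domain. The first 30 bases of the former are given, and the other probes are shown whole with the bases in capitals that are identical in their ungapped alignment, 24 of 38, because probes of related genes could bind each other's RNA:

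LEF1, 3′ end: gcccaaaactgtcatcctaacgtttgtcat
LEF1, HMG box: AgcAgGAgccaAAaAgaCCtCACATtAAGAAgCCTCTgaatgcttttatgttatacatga
TCF7L2, HMG box: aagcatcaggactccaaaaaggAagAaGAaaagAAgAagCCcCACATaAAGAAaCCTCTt

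By the brightest probe the level of LEF1 was 3.30, 3.42 and 3.45 in HBL-1 and 2.03, 2.43 and 2.55 in OCI-Ly3, with siCtrl signals of 7660 to 9510 and 1870 to 3480 units. It was -7.24, -7.13 and -7.06 in DB, below background on every array, and -7.31, -6.97 and -6.40 in K422, well above background on 1 array at 20.5 units. LEF1 was at least 155-fold higher in OCI-Ly3 than in DB (limma adjusted p = 3.98e-11). Its log2 difference between HBL-1 and K422 was 10.29 (limma adjusted p = 2.54e-11). That value averages all K422 arrays, most of them at background, and is not a measured size. On the 1 K422 array well above background the level was -5. By the HMG box probe LEF1 was at least 5.92-fold higher in HBL-1 than in K422. The HMG box probe had 6 siCtrl signals above background in each of HBL-1 and OCI-Ly3, 1 in DB and 0 in K422. It gave -0.83 for OCI-Ly3 minus HBL-1, which was not called (limma adjusted p = 0.0564). By the brightest probe HBL-1 exceeded OCI-Ly3 by 1.05 (limma adjusted p = 0.00177), which without replicate 1 of OCI-Ly3 was 0.90 and below 2-fold.

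The response of LEF1 depended on the probe. By the brightest, the log2 ratio ran from -0.26 to -0.04 in OCI-Ly3, below 0 on 6 of 6 arrays (mean -0.16 ± 0.08, SD, limma adjusted p = 0.404), and from -0.19 to 0.40 in HBL-1 (mean 0.04). By the HMG box probe it ran from -0.83 through -0.54 to 0.08 in OCI-Ly3, below 0 on 5 of 6 arrays (mean -0.48 ± 0.32, adjusted p = 0.000914), and from -0.03 to 0.71 in HBL-1 (mean 0.29 ± 0.26, adjusted p = 0.0195). Neither mean reached 1.41-fold. The difference among lines was called by this probe (range 0.77, adjusted p = 0.00188) and not by the brightest (range 0.20, adjusted p = 0.731). It was measured on signals of 28.0 to 50.0 units in OCI-Ly3, and the brightest probe stands for the gene here.

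TCF7, which encodes TCF-1, followed LEF1 in its levels. Its probe (A_23_P7582, hg18 chr5:133511136-133511195, plus strand) begins as follows, first 30 bases, shown as the sole probe of the gene:

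TCF7: cccagaaaacctccagtagtggacaacagg

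The level of TCF7 was -1.60, -1.48 and -1.42 in HBL-1 and -2.91, -2.77 and -2.46 in OCI-Ly3, well above background on 6 of 6 arrays of each. It was -7.26, -7.15 and -7.01 in DB and -7.39, -7.08 and -6.84 in K422, below background throughout, so that the ABC-DLBCL and GCB-DLBCL samples did not overlap. TCF7 was at least 15.6-fold higher in HBL-1 than in K422 (limma adjusted p = 3.38e-10) and at least 4.67-fold higher in OCI-Ly3 than in DB (adjusted p = 1.97e-09), and HBL-1 exceeded OCI-Ly3 by 1.21 (adjusted p = 0.000102). With normexp correction the log2 differences from DB were 0.84 for TCF7 and 0.81 for AXIN2 in OCI-Ly3 and were not called, whereas LEF1 was called.

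Because LEF1 and TCF7 are also T cell genes, T cell markers were read on the same arrays. Of 5 such markers, 1 was well above background on all arrays of DB, 4 of K422, 2 of HBL-1 and 1 of OCI-Ly3. Their summed signal was 11800 to 17700 units in K422, 3270 to 4960 in HBL-1, 1600 to 2780 in DB and 53.9 to 99.4 in OCI-Ly3. CD3D and CD3G were well above background on 6 of 6 arrays of K422 (levels of 2.29 and 3.34) and on 0 of the other lines. CD3E was so on 6 arrays of K422, HBL-1 and OCI-Ly3 and 2 of DB (levels -3.63, -3.42, -4.03 and -4.72). CD247 was so on 6 arrays of HBL-1, K422 and DB (2.22, 2.02 and 1.64) and 5 of OCI-Ly3 (-4.64), and CD2 on 3 of K422, 3 of HBL-1, 1 of DB and 0 of OCI-Ly3. The part of these markers in the levels of LEF1 and TCF7 was not tested.

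On silencing, the log2 ratio of TCF7 in HBL-1 ran from 0.18 through 0.36 to 1.03, above 0 on 6 of 6 arrays (mean 0.44 ± 0.31, SD, limma adjusted p = 0.00131), below 1.41-fold. siFOXP1_309 gave 0.63 and siFOXP1_308 gave 0.25, and without replicate 2 of HBL-1 the mean was 0.52 and was called. In OCI-Ly3 it ran from -0.35 to 0.31 (mean 0.05, adjusted p = 0.821). In K422 it was 0.39 (adjusted p = 0.00663) on signals that were below background in both channels of every array, so it carries no measured change. The line values did not differ past the threshold (range 0.39, adjusted p = 0.0909).

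TCF7L2, which encodes TCF-4, was not detected as expressed in these lines. Its brighter probe was well above background on 2 of 24 arrays in the siFOXP1 channel and 1 in the siCtrl channel, and its other probe (A_23_P127013) on 0. Levels lay between -7.47 and -5.54 over all control samples, and no pair of lines was called. Those arrays were siFOXP1_308 replicate 1 of HBL-1, with 63.9 (siCtrl) and 58.9 units, and siFOXP1_309 replicate 1 of OCI-Ly3, with 21.8 and 18.4 units. Its log2 ratios scattered from -1.82 to 0.61 and carry no measured change.

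Whether the subtypes differed in response was tested as the mean response of the ABC-DLBCL lines against that of the GCB-DLBCL lines. The p-values of this test rest on the spread of arrays within each line and siRNA. They do not measure the spread between lines of a subtype, so they hold for these lines only. None of the 10 genes was called (0 of 10 by limma, 2.17% of all probes), and 2 had an unadjusted p under 0.05 (20.7% of all probes): LRP5, at -0.23 (adjusted p = 0.236), and AXIN1, at 0.12 (adjusted p = 0.0894). For LRP5 the difference was -0.72 within scan 1 and 0.26 within scan 2, in opposite directions, and for AXIN1 it was 0.08 and 0.15. Between siRNAs, siFOXP1_309 minus siFOXP1_308, 0 were called and 0 had an unadjusted p under 0.05 by the brightest probe (0.21% and 10.9% of all probes). For FOXP1 itself this difference was -1.03 (adjusted p = 1.08e-06). Averaged over the lines, the stronger knockdown by siFOXP1_309 was thus not accompanied by a called difference in any of the 10 genes. In HBL-1, siFOXP1_309 alone called TCF7 (0.63) and LRP5 (0.62), and siFOXP1_308 alone called neither (0.25 and 0.12). The difference between siRNAs in HBL-1 was not called for TCF7 or LRP5 (limma adjusted p = 0.908 and 0.785).

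Promoter sequences of 8 of the 10 genes were found in RefSeq (GRCh38.p14, 12 windows of 300 bases around a transcript start), AXIN2 and LRP6 being the others. The TCF/LEF words CTTTGAT or CTTTGTT or CTTTGAA or CTTTGTA on either strand occurred in 2 of the 12 windows, of TCF7 and TCF7L2, and in 13.8% of 35116 promoters of the same length. The forkhead word TGTTTAC, of the kind that FOXP proteins bind, occurred in 1 of the 12, of TCF7, and in 3.42% of all promoters. The stretches of the TCF7 promoters around both words are printed, the word in capitals, because TCF7 is the member that carries both:

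TCF7, forkhead, chr5:134115564-134115623: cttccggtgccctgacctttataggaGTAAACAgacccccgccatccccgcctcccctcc
TCF7, TCF/LEF, chr5:134123542-134123601: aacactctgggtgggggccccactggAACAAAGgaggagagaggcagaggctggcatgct

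The stretches are read on the plus strand, and the capitals are the reverse complements of TGTTTAC and CTTTGTT, which thus lie on the minus strand. They lie 23 and 50 bases before the starts of different TCF7 transcripts. A match is a description of the sequence, and binding was not measured on these arrays.

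The wider pathway was read from lists of 126 genes, of which 125 were on the array. On silencing, K422 had 16 calls (5 higher, 11 lower), or 12.8% of the listed genes against 4.25% of all probes. HBL-1 had 14 (8 higher, 6 lower), 11.2% against 9.88%, OCI-Ly3 had 8 (4 higher, 4 lower), 6.4% against 4.62%, and DB had 5 (1 higher, 4 lower), 4% against 2.17%. The shares of HBL-1 and OCI-Ly3 lie near those of all probes. Among lines 24 differed, 19.2% against 9.69%. The median log2 ratios of the listed genes were 0.03 in K422, 0.11 in HBL-1 and 0.01 in both OCI-Ly3 and DB, against 0 for all probes. With normexp correction and loess there were 2 calls each in K422 and OCI-Ly3, 6 in HBL-1 and 0 in DB. Calls over all probes fell as well under that setting, to 316 in K422, 401 in OCI-Ly3, 1205 in HBL-1 and 99 in DB. Counts for single lists rest on few genes and are to be read against the same shares of all probes, 9.88% in HBL-1, 4.62% in OCI-Ly3, 4.25% in K422 and 2.17% in DB.

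Of 25 ligands and R-spondins, 4 were called lower in K422 and 3 higher in HBL-1, and 0 in DB or OCI-Ly3. WNT3, a canonical ligand, ran from -1.25 to -0.15 in K422 (mean -0.64 ± 0.45, SD, n = 6, limma adjusted p = 0.000332) and from 0.34 to 1.18 in HBL-1 (mean 0.71 ± 0.36, adjusted p = 4.25e-05). The arrays of these lines, which share a scan, did not overlap, and the difference was 1.35 (adjusted p = 1.4e-05). WNT6 rose by 0.83 ± 0.27 in HBL-1 (adjusted p = 4.61e-07) and WNT4 by 0.67 ± 0.32 (adjusted p = 0.0224). These sizes depended on the background correction. With normexp and median centring, WNT3 was -0.18 in K422 and 0.27 in HBL-1, WNT4 was 0.12 and WNT6 was 0.34, none of them called, and with loess WNT6 alone was called. With the mean over its probes WNT6 was 0.43. Of 17 receptors, 3 rose and 3 fell in K422. FZD5 was lower in K422 and HBL-1, by -0.65 in each, and FZD1 higher in K422, at 0.66 ± 0.19. With the mean over its probes FZD5 was -0.27 in K422 and -0.45 in HBL-1 and was not called, and with normexp and loess it was -0.28 and -0.42.

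Of 18 secreted and membrane inhibitors, 1 was called in each of DB, K422 and HBL-1, all lower, and 0 in OCI-Ly3. Of 27 cytoplasmic components, 4 were called in HBL-1, 2 each in K422 and OCI-Ly3 and 1 in DB. FAM123A (now AMER2), which encodes an APC-binding protein, was lower on 6 of 6 arrays of DB, K422 and OCI-Ly3. Its siFOXP1 signal was at background on all arrays of DB and OCI-Ly3, where the fall was at least 2.11-fold and 2.26-fold (limma adjusted p = 1e-05 and 7.15e-06), and it was -0.98 ± 0.34 (SD, n = 6) in K422 (adjusted p = 0.0185). CXXC4, an inhibitor that binds Dishevelled, was 0.57 ± 0.39 in OCI-Ly3 (adjusted p = 0.0105), with 0.24 by siFOXP1_308 and 0.90 by siFOXP1_309. With normexp and loess the log2 ratio of CXXC4 was 0.35 and that of FAM123A -0.22 in K422 and -0.31 in OCI-Ly3, and none was called. DACT3, an inhibitor that acts on Dishevelled, was -0.78 ± 0.26 (SD, n = 6) in HBL-1 (limma adjusted p = 0.025), and with the mean over its probes it was -0.13 and was not called. Of 21 nuclear cofactors, 1 was called in HBL-1 and 1 in OCI-Ly3, where EP300, an acetyltransferase that beta-catenin recruits, was -0.58 ± 0.44 (adjusted p = 0.00113), a mean that was -0.31 without replicate 3 of OCI-Ly3 and -0.29 with the mean over its probes, and not called in either.

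Of 17 target genes, 3 were called in DB (1 higher, 2 lower), 3 in K422 (1 higher, 2 lower), 2 in HBL-1 (1 higher, 1 lower) and 2 in OCI-Ly3 (1 higher, 1 lower). VEGFA, the angiogenic factor, was lower in K422 (-0.63 ± 0.32, SD, n = 6), HBL-1 (-0.60 ± 0.08) and OCI-Ly3 (-1.02 ± 0.26), with limma adjusted p of 0.0154, 0.0123 and 0.000408. These calls held with both normexp settings and were lost with siFOXP1_308 alone, at -0.85, -0.64 and -1.10. With siFOXP1_309 alone VEGFA was -0.41 in K422 and -0.57 in HBL-1, and with the mean over its probes -0.39 and -0.37, not called in either. MMP7 was higher in OCI-Ly3 (0.85 ± 0.20, adjusted p = 0.0112), SP5 in HBL-1 (0.62 ± 0.27, adjusted p = 5.46e-06) and SOX9 in K422 (0.60 ± 0.08, adjusted p = 0.0108) and DB (0.57 ± 0.42, adjusted p = 0.0218). CD44 was lower in DB (-0.61 ± 0.41, adjusted p = 0.00521), where siFOXP1_308 gave -0.93 and siFOXP1_309 gave -0.29, and at background in control cells of K422. With normexp and median centring SP5 was 0.31, SOX9 0.31 in K422 and CD44 -0.36 in DB, and with the mean over its probes SP5 was 0.21, none of them called. MYC was not called in any line, at 0.26 in DB and between -0.33 and -0.27 in the others, but its response differed among lines (range 0.59, adjusted p = 0.00706). Between subtypes, 5 listed genes were called higher in the response of the ABC-DLBCL lines and 1 lower (4.8% of the listed genes against 2.17% of all probes). Of these, CD44 was called within each scan (0.91 and 0.75, adjusted p = 0.0119 and 0.0176), WNT3 in scan 2 alone, KREMEN2, MMP7 and SOX9 in scan 1 alone, and BCL9L in neither. The scan 2 value of CD44 takes in K422, where CD44 was called lower while at background in control cells. With normexp none of these 6 differences was called, and with median centring that of CD44 was -0.01.

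Some of these calls needed all 3 replicates. SOX9 in K422 (0.57 to 0.63), FAM123A in K422 (-1.09 to -0.87) and WNT4 in HBL-1 (0.63 to 0.70) were not called without any 1 replicate of the line. VEGFA was not called without replicate 2 or 3 of K422 (-0.66 and -0.52) or replicate 1 or 3 of HBL-1 (-0.60 and -0.57), nor DACT3 without replicate 1 or 3 of HBL-1 (-0.71 and -0.70). In OCI-Ly3 the calls of MMP7 (0.81 and 0.82) and CXXC4 (0.53 and 0.52) were lost without replicate 2 or 3, and in DB that of CD44 without replicate 2 (-0.55). The subtype difference of MMP7 was lost (0.76 to 0.82) without any 1 replicate other than 2 or 3 of DB, and that of BCL9L (0.44 to 0.67) without any other than 3 of DB or 2 of OCI-Ly3.

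**Figure D4:**
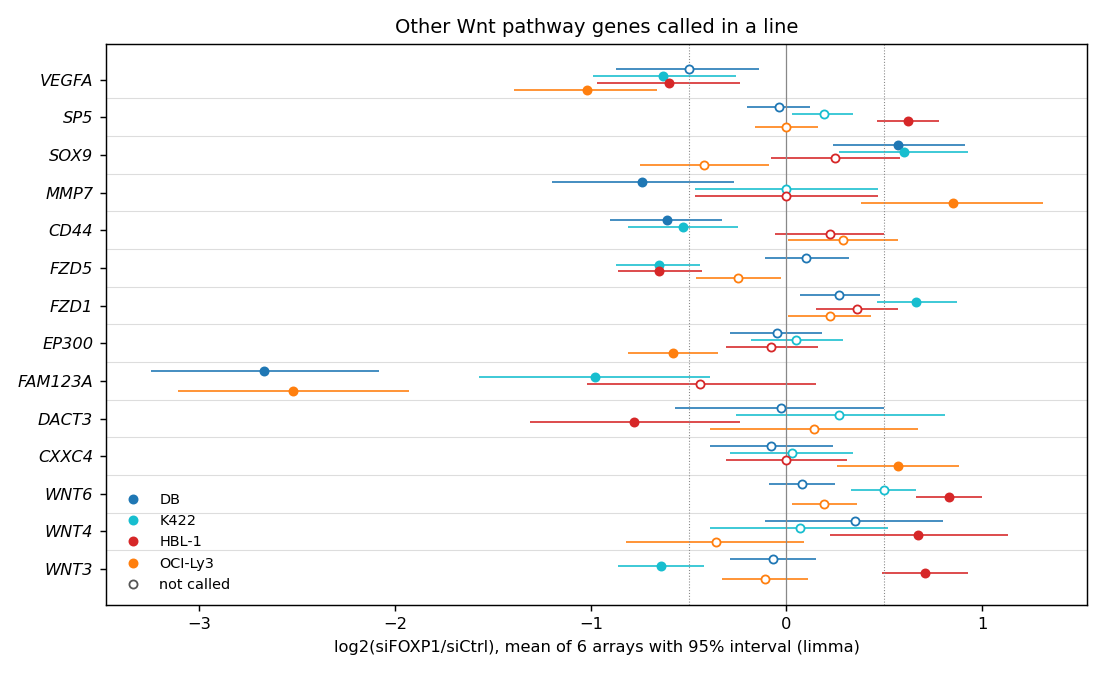
Log2 ratio of siFOXP1 over siCtrl in each line (mean of 6 arrays with the 95% interval of limma) for other pathway genes called in a line, 1.41-fold marked by dotted lines. Filled points were called; WNT3 lies below 0 in K422 and above 0 in HBL-1, and VEGFA is called lower in K422, HBL-1 and OCI-Ly3.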

How the data were processed

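Total RNA of 24 samples was measured against siCtrl RNA on 2-colour Agilent arrays of 45015 spots. The authors deposited Feature Extraction output (version 10.5.1.1 for scan 1 and 10.7.3.1 for scan 2), holding processed intensity per channel, after background subtraction and dye normalization, and the log10 ratio per spot (Cy5 over Cy3). The authors also deposited a matrix whose values ran with log2 of Cy3 over Cy5 (r per array 0.804 to 0.998, column medians -0.173 to 0.067), used as an alternative. Ratios at exactly 0 are set where signals are at background.

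Control spots (1639) and outlier spots (113 to 469 per array) were left out, spots of a probe averaged, and log10 ratios turned to log2(siFOXP1/siCtrl). With limma 3.58.1 in R 4.3.3, 8 means (line and siRNA) were fitted to 41000 probes, and p-values adjusted over all probes (Benjamini-Hochberg). A gene stands by its brightest probe. Levels used the siCtrl intensity on the log2 scale. Gene names and hg18 positions are those of the array design. The code was tested on simulated data.

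The members and lists were chosen with earlier results of these data known. All members are named. Of the lists, genes called, alike in direction on all 6 arrays of a line and measured above background in either channel of each were named, the 6 greatest per line, and genes called between subtypes or among lines could be.

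Alternatives were normexp (offset 50) with loess or median centring, the deposited matrix, dim probes left out, outlier spots kept, other probe rules, blocks for replicate or slide, lines or siRNAs taken singly, the methods' t-test, other fold thresholds, quantile normalization of levels and each replicate left out. Replicates are independent experiments per the methods of the study, and the labels give replicate numbers only. Whether both siRNA arrays of a replicate shared 1 control extract is not given in the sources used here.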

Additional observations from a re-analysis of the deposited data

Results flagged for a closer look

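In 6 of 40 groups of 6 arrays (each gene in each line), 1 array lay farther from the rest than Dixon's 95% critical value allows, where chance gives about 2, or 1 in 20 groups. Of these, 4 were at or near background. For LEF1 in K422, siFOXP1_309 replicate 3 was at -1.14 against 0 to 0.43 on the others. For TCF7L2, siFOXP1_309 replicate 3 of K422 was at -1.36 (others 0 to 0.10) and siFOXP1_308 replicate 2 of HBL-1 at -0.47 (others -0.13 to 0). For LRP6 in DB, siFOXP1_308 replicate 1 was at 0.94, and the others were at 0. With measured signal, siFOXP1_309 replicate 1 of HBL-1 stood apart for TCF7, at 1.03 (others 0.18 to 0.49), and for GSK3B, at -0.04 (others -0.22 to -0.17). These ratios come from 1 array.

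The response to silencing differed between lines for LRP5, by -0.72 between OCI-Ly3 and DB and with a range of 0.72 among the 4 lines, and for LRP6, with a range of 0.64 among the lines. LRP5 was not well above background in control cells of DB, nor was LRP6 in either channel by its brightest probe. The range of LRP6 runs from K422 (-0.40) to OCI-Ly3 (0.25), with DB (0.16) inside it. The part of the background signals of DB in the LRP5 differences and in the F-test of LRP6 was not tested.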

How the results depend on the processing

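Of the 10 genes, 1 was called in DB and 2 among lines. With normexp and loess, or normexp and median centring, 0 were called in DB and 0 among lines. The count in DB was also 0 with each line fitted alone, with the adjusted t-test of the methods, with siFOXP1_309 alone and at 2-fold. There 143, 86, 448 and 159 of all probes were called. Among lines the count was 0 with siFOXP1_308 alone and at 2-fold, where 826 and 1209 of all probes were called. It was 1 (LRP5) with the deposited matrix (4476 of all probes), the mean over probes (2800 of all genes) and slides as a block (2783 of all probes). With siFOXP1_309 alone it was 1 as well (LRP6, with 2395 of all probes). In HBL-1, siFOXP1_309 alone called 2 (TCF7 and LRP5) and 4261 of all probes. With no fold threshold the calls were 2 in OCI-Ly3 (19.5% of all probes), 4 in HBL-1 (31.3%), 3 in K422 (19.1%) and 3 in DB (12.4%). Leaving out each replicate gave 1 to 1 in DB, 0 to 0 in K422 and OCI-Ly3, 0 to 1 in HBL-1 (1 without replicate 1 or replicate 2 of HBL-1), 0 to 0 between subtypes and siRNAs, and 2 to 2 among lines. For levels, normexp gave 4 in place of 8 for OCI-Ly3 against DB, 0 in place of 2 for K422 against DB, 2 in place of 5 for OCI-Ly3 against K422 and 1 in place of 4 for OCI-Ly3 against HBL-1. Over all probes the calls of these pairs fell to 5098, 4873, 5655 and 4256, from 10998, 11575, 12679 and 10619. The other pairs changed too. For HBL-1 against K422, normexp lost APC (-0.22), LRP5 (-0.49) and LRP6 (1.05) and called CTNNB1 (-1.02). For HBL-1 against DB it lost APC (-0.71) and LRP5 (0.37). With no fold threshold, 6 differed between K422 and DB and 8 between OCI-Ly3 and HBL-1, where 20763 and 19800 of all probes did. Replicates left out gave 7 to 8 (OCI-Ly3 against DB), 6 to 7 (HBL-1 against K422), 2 to 3 (K422 against DB), 6 to 6, 5 to 5 and 3 to 4. The subtype difference of CD44 turned to -0.01 with normexp and median centring. The causes were not tested, apart from the offset of 50, which by construction shrinks ratios of dim probes. The main fit did not take replicate numbers to pair the arrays. However, all 12 correlations of deviations were above 0 (0.0477 to 0.297), and 6 were over 0.1, all 3 of DB among the 6. The p-values of the main fit treat both siRNA arrays of a replicate as independent, which these correlations do not bear out. The correlation estimated for a replicate block was 0.245. With a replicate block the response counts were 1 in DB, 2 among lines and 0 for each of K422, HBL-1, OCI-Ly3, the subtypes and the siRNAs, and the level counts 8, 6, 2, 6, 5 and 3. Of the other pathway genes the replicate block called 3 in place of 5 in DB, and WNT4 in HBL-1, FAM123A in K422 and the subtype differences of MMP7 and BCL9L were no longer called.

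Of 30 values named for other pathway genes, 9 stayed called with normexp and loess, 7 with normexp and median centring, 13 with siFOXP1_308 alone and 14 with siFOXP1_309 alone. Signals at background limit LRP5, LRP6 and TCF7 in DB or K422 and TCF7L2 throughout.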
